A study of Mus musculus with 12 samples.

Results

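These are the MeDIP and hMeDIP peaks whose nearest gene was strongly induced in newborn neurons of the E14.5 mouse cortex. They were chosen by measured expression: the nearest gene had an expression value of at least 1000 in neurons, at least 8 times that in proliferating progenitors (PP), and more than 2 times that in differentiative progenitors (DP). Of 55085 peaks of 5-methylcytosine (5mC), 2218 met the rule (4.03%), near 417 genes, and of 47478 peaks of 5-hydroxymethylcytosine (5hmC), 2557 met it (5.39%), near 425 genes. Together these were 4775 of 102563 peaks, near 461 genes, of which 381 had peaks of both marks, 36 of 5mC only, and 44 of 5hmC only.

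The cells came from embryos double heterozygous for a Btg2 RFP and a Tubb3 GFP reporter and were sorted by fluorescence. Cells without either reporter were PP, cells with Btg2 RFP alone were DP, and all cells with Tubb3 GFP were neurons, so that Tubb3 itself defined the neurons. For each cell type and mark the series holds an antibody pull-down and its input, 12 samples in all, with sheared DNA of the 3 cell types barcoded and mixed before the pull-down. The methods state 3 biological replicates, which the labels do not separate, and each peak carries 1 mean log2 level per cell type, so that neither the spread between replicates nor the depth per peak can be given from these levels. Folds and p-values of the authors between cell types stand in the tables but were not used, and no test was made here. Levels are averages over sorted cells, in which fewer modified cells and fewer modified cytosines per cell cannot be told apart.

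5mC is the main modification of cytosine in mammalian DNA and lies mostly at CpG dinucleotides. TET enzymes oxidize it to 5hmC, which is both a step towards demethylation and a lasting mark that is abundant in neurons, in particular over gene bodies and enhancers. Genes induced in newborn cortical neurons encode the cytoskeleton of neurites, adhesion molecules and receptors that guide axons, and the machinery of excitability and synaptic release.

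In the following, a difference is the level in the later cell type minus that in the earlier cell type on the log2 scale, centred on the median over all peaks of the mark. This median was −0.18 for 5mC from DP to neurons and −0.17 from PP to neurons, and lay between −0.081 and −0.0035 in the other comparisons. A peak was counted as lower or higher at a change of 1.5-fold or more. Nearest means the nearest start site in the deposited annotation, which does not show that a peak acts on that gene.

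Few of the peaks lay at a start site of their own gene. Within windows from 250 bases before to 50 after RefSeq start sites (GRCm38.p6, the assembly called mm10), 8 of the 2218 5mC peaks and 13 of the 2557 5hmC peaks overlapped a window of their nearest gene, 1 of the latter matched by the gene's description. Of these, 2 5mC peaks, at Rph3a and Cabp1, were lower in neurons than in PP, and 1 5hmC peak, at Eef1a2, was lower. RefSeq windows were found for 339 of the 461 genes, so peaks of the remaining genes could not be counted. The shares over all peaks are not given here, so these counts do not set the members apart. A gene can have more than 1 RefSeq start site. By the deposited annotation, used for all distances below, the Cabp1 peaks lie 8287 bp (5mC) and 8180 bp (5hmC) inside the gene. Bases before the start site are printed below for the 5mC peak at Rph3a, the 5hmC peak at Eef1a2, and 5hmC peaks at Cabp1 and Sstr3 that did not pass 1.5-fold. The 5hmC peak at Cabp1 is shown because it covers the part of the 5mC peak before the start site. CpG dinucleotides, the usual sites of both modifications, are in capitals. These 4 genes were chosen for their position after their values were seen, and each sequence is read 5′ to 3′ on the minus strand, which is the strand of the gene.
Rph3a, 5mC, chr5:121010141-121010257: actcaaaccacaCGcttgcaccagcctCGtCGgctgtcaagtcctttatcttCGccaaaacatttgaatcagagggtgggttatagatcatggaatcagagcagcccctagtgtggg
Cabp1, 5hmC, chr5:115186122-115186323: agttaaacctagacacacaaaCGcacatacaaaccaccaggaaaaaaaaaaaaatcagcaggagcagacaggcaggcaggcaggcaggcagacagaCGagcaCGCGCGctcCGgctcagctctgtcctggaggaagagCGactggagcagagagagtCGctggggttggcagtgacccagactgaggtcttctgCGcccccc
Eef1a2, 5hmC, chr2:181157050-181157232: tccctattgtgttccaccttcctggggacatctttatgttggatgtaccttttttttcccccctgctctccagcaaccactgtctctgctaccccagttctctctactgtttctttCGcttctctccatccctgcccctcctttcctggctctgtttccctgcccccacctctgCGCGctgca
Sstr3, 5hmC, chr15:78544420-78544595: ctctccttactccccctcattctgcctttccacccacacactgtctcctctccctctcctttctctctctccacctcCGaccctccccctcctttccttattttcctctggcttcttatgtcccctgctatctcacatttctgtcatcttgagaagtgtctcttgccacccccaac

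The printed stretches hold 4 CpGs at Rph3a, 9 at Cabp1, 3 at Eef1a2 and 1 at Sstr3. At Rph3a, which encodes the vesicle protein rabphilin, the 5mC level was 5.63 (PP), 5.66 (DP), and 2.58 (neurons). The level was nearly the same in both progenitors, and the centred difference from PP to neurons was −2.88. Cabp1, which encodes a neuronal calcium-binding protein, had a 5mC level of 4.16 in PP and 3.0 in DP against 0.11 in neurons, the lowest value that the neuron column holds. Its 5mC peak, chr5:115186035-115186153, shares the last 32 bases of the printed stretch. The overlapping 5hmC peak stood at 4.89 (PP), 5.53 (DP), and 5.11 (neurons), so that the loss of 5mC signal was accompanied by a 5hmC difference of 0.30, which did not pass 1.5-fold. Eef1a2, the elongation factor of neurons and muscle, had a 5hmC level of 5.14 in PP and 4.73 in DP against 4.46 in neurons, a difference of −0.60. Sstr3, a somatostatin receptor, kept 5hmC at 6.61, 6.79, and 6.92. All 4 genes were members by rule, with expression that rose from 12.9 in PP to 2340.2 in neurons for Rph3a, from 124.1 to 4562.3 for Cabp1, from 25.8 to 3100.5 for Eef1a2, and from 62.1 to 2268.6 for Sstr3.

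The promoters of the induced genes held more CpG than RefSeq promoter windows in general. RefSeq windows were found for 339 of the 461 genes, 520 windows in all, and their median was 15 CpGs against 7 over all 32851 windows. At least 10 CpGs were found in 65.0% of the windows of induced genes and in 43.5% of all windows. All windows belong to 27025 genes taken without regard to expression. Windows of other expressed genes were not compared separately, here or for the motifs below. Short binding motifs of several families of transcription factors were searched on both strands. CAGATG, the E-box of Neurod and Neurog factors, was in 13.1% of the windows of induced genes and 17.2% of all, and with each gene counted once at 17.1% of induced and 19.2% of all genes. CAGGTG, the E-box of Zeb factors and E-proteins, was in 25% and 20.2% of windows, and ACAAAG, a Sox motif, in 15.2% and 18.7%. TTGGCA, an NFI motif, was in 12.7% and 14.1%, AGGTGTGA, a T-box motif, in 0.577% and 1.28%, and ATTTGCAT, the POU octamer, in 1.15% and 1.74%. None of these motifs holds a CpG, E-boxes of different types can lie in the same window, and windows of 1 gene may overlap. A match is a description of the sequence and not a bound site.

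The choice of genes gave the expression pattern itself, which is therefore a description. The median expression of the 461 genes was 167.7 (PP), 476.2 (DP), and 4710.7 (neurons), and the median ratio of neurons to PP was 23.1. Expression in DP was at least 2 times that in PP for 294 genes, called early, and less for 167 genes, called late. The highest values in neurons were those of Cntn2, an axonal adhesion molecule, which stood at 1146.4 in PP and 9930.8 in DP against 226628 in neurons, and Dcx, which encodes the microtubule protein doublecortin, at 2305.6, 32460.6, and 119166. They were followed by Dpysl3, Islr2, Tubb3, Apc2, Ttc28, Dpysl5, Crmp1, and Sez6, the last at 71611.5. At the boundary, Tmem229b (ratio 8.0), Lrrn2 (8.07), and Magel2 (8.14) were the last genes inside, and Atp2b4 (7.93), Camk2n1 (7.89), and Tmem108 (7.89) the nearest outside.

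The expression values come from earlier RNA-seq of these cell types and not from the cells of the pull-downs, so that marker genes describe the cells of that study. All 12 PP markers with a peak, such as Sox2 and Pax6, were highest in PP, all 9 DP markers, such as Eomes, were highest in DP, and all 9 neuron markers were highest in neurons and met the rule. Genes of interneurons were also among the members, namely Dlx5, Gad1, Nxph1, and Sp9, 4 of 7 such markers with a peak, and so were Nhlh2 and Reln, 2 of 7 markers of Cajal-Retzius cells. Summed expression of the interneuron markers was 1038.1 (PP), 3838.5 (DP), and 13984.5 (neurons), and all 7 were highest in neurons. The sum of the Cajal-Retzius markers was 368 (PP), 3821.4 (DP), and 40429 (neurons), and Reln made up 36007.4 of the last. Of the 7 Cajal-Retzius markers, 5 were highest in neurons and 2, Ebf2 and Ebf3, in DP. None of the 10 markers of vessels and microglia met the rule, and their sum was 2515.6 in PP and 909.6 in DP against 286.4 in neurons. The part of these other cell types in the levels of the peaks was not tested.

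Near the induced genes, 5mC was lower in neurons at more peaks than over the whole table. From PP to neurons, 414 of 2218 member peaks (18.7%) were lower, against 10.2% of all peaks, and 90 (4.06%) were higher, against 5.00%. From DP to neurons 365 (16.5%) were lower, against 9.36%, and 89 (4.01%) higher, against 5.12%. From PP to DP 151 (6.81%) were lower, against 5.44%, and 97 (4.37%) higher, against 4.60%. At peaks with a mean level of 5 or more the order from PP to DP was turned, with 0.63% of member peaks lower against 1.16% of all such peaks. The median difference of the member peaks was −0.025 from PP to DP, −0.087 from DP to neurons, and −0.11 from PP to neurons, each relative to 0 over all peaks. Lower peaks made up 82.1% of the member peaks past 1.5-fold from PP to neurons and 80.4% from DP to neurons, against 67.2% and 64.6% over all peaks. Without centring these shares were 93.3% and 92.8%, against 88.5% and 87.3%.

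5hmC was higher in neurons at somewhat more of the member peaks than over the whole table. From PP to neurons, 678 of 2557 member peaks (26.5%) were higher, against 22.1% of all peaks, and 200 (7.82%) lower, against 7.71%. From DP to neurons 536 (21.0%) were higher, against 16.5%, and 162 (6.34%) lower, against 7.07%. From PP to DP 337 (13.2%) were higher, against 11.2%, and 106 (4.15%) lower, against 4.68%. The medians of the member peaks were close to those of all peaks, at 0.0031, 0.049, and 0.043 for these comparisons from PP to DP, DP to neurons, and PP to neurons. The share past 1.5-fold thus lay above that of all peaks while the middle of the distribution hardly moved. At peaks with a mean level of 5 or more over the cell types, the median 5hmC difference of the members was −0.042 from DP to neurons and −0.065 from PP to neurons, beside −0.045 and −0.051 over all peaks of that level.

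**Figure D1:**
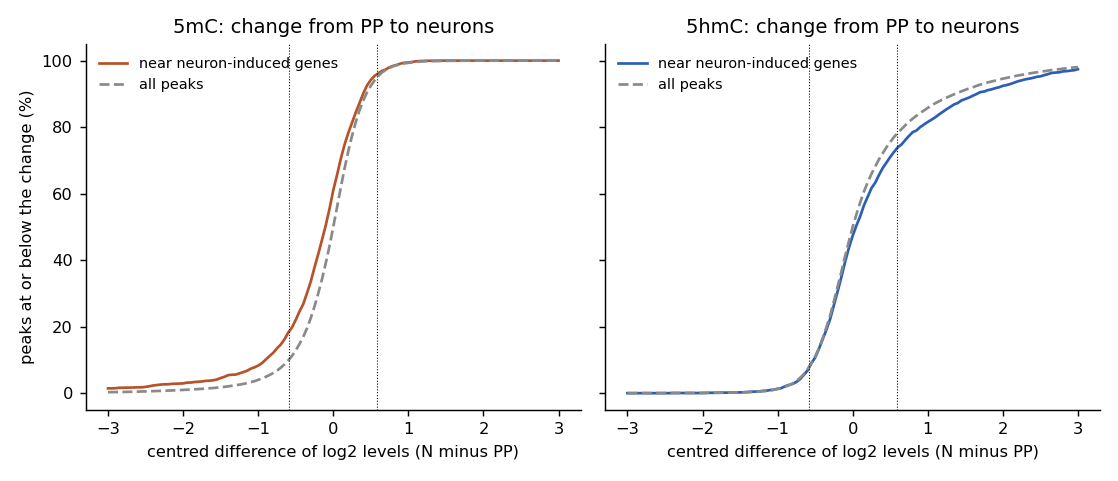
Cumulative share of peaks (%) by centred difference of log2 levels from PP to neurons, for 5mC (left) and 5hmC (right); solid lines are the 2218 and 2557 peaks near neuron-induced genes, dashed lines all 55085 and 47478 peaks, and dotted lines mark 1.5-fold. The 5mC line of the members lies above that of all peaks through most of the range, with 18.7% against 10.2% at the lower dotted line, and the 5hmC lines part mainly on the side of gain.

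Peaks of low level passed 1.5-fold more often in both groups. Among peaks with a mean level of 5 or more, 5mC was lower from PP to neurons at 82 of 952 member peaks (8.61%), against 3.91% of all peaks of that level, and 5hmC was higher at 115 of 824 (14.0%), against 12.2%. Below that level the shares were 26.2% of 1266 member peaks for 5mC and 32.5% of 1733 for 5hmC, against 16.2% and 26.7% of all such peaks. Of the 414 member peaks with lower 5mC, 18 had a level under 1 in neurons, and of the 678 with higher 5hmC, 22 had a level under 1 in PP. At such levels the size of a fold depends on how the deposited values treat near-absent signal.

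Genes with other expression patterns gave the comparison. Peaks near genes with the mirrored rule, that is at least 1000 in PP, at least 8 times neurons, and more than 2 times DP, were lower in 5mC from PP to neurons at 8.89% of 416 peaks and higher in 5hmC at 18.2% of 506 peaks. Near genes of steady expression, within 1.5-fold between PP and neurons, the values were 8.71% of 10584 peaks and 21.7% of 7950 peaks. Over all genes with at least 1000 in neurons, whether or not they exceeded DP by 2 times, the share of peaks with lower 5mC was 14.1% where the ratio of neurons to PP was 2 to 4, 17.1% at 4 to 8, 19.9% at 8 to 16, 18.0% at 16 to 32, and 17.3% above 32. The share with higher 5hmC was 29.5% at 2 to 4, 28.7% at 4 to 8, 31.4% at 8 to 16, 27.0% at 16 to 32, and 23.1% above 32. Neither share increased from a ratio of 8 upwards, and 5hmC near the genes with the highest ratios was close to the 22.1% of all peaks. For higher 5hmC, shares above that of all peaks were not limited to induced genes, at 23.6% for a ratio of 1/2 to 2/3 and 26.3% for 1/8 to 1/2. Lower 5mC there, at 9.54% and 10.3%, was under or close to the 10.2% of all peaks. At a ratio of 1.5 to 2, a small rise in expression, the shares were 10.7% for lower 5mC and 24.6% for higher 5hmC. Near genes that had fallen to under 1/8 of PP and still had at least 1000 in neurons, 5mC was lower at 25 of 160 peaks (15.6%) and 5hmC higher at 29.0% of 207 peaks, near 27 and 24 genes. Lower 5mC was thus more frequent there than at a ratio of 2 to 4, and less so than at 4 to 8.

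**Figure D2:**
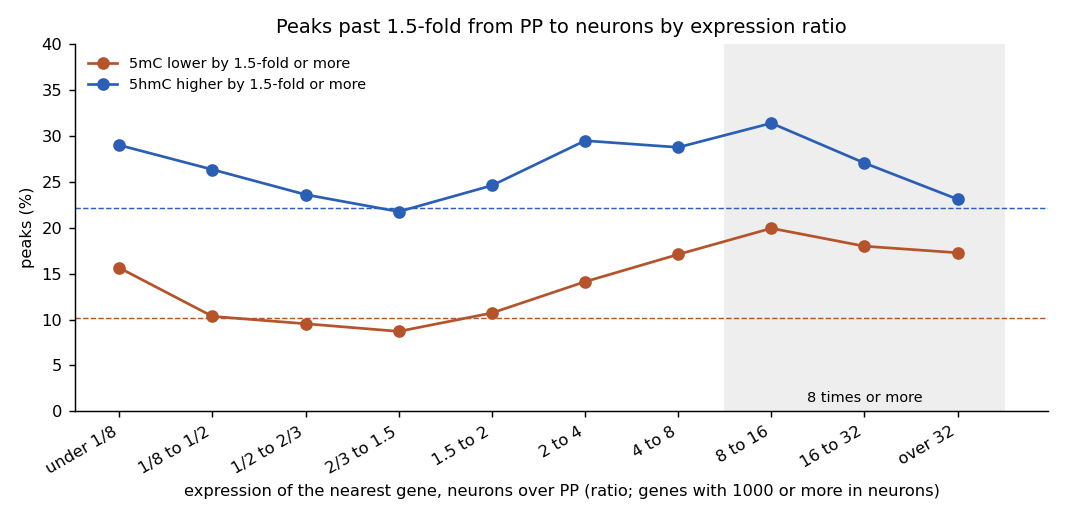
Share of peaks (%) with lower 5mC and with higher 5hmC from PP to neurons, by the ratio of expression of the nearest gene in neurons over PP, for genes with at least 1000 in neurons; dashed lines are the shares over all peaks, 10.2% and 22.1%, and the grey area covers ratios of 8 or more. Lower 5mC runs from 8.71% at a ratio of 2/3 to 1.5 to 19.9% at 8 to 16, and higher 5hmC falls from 31.4% to 23.1% within the grey area. At the left end, under 1/8, the values are 15.6% and 29.0%.

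The step at which the marks changed was compared between early and late genes. Near early genes 5mC was lower from PP to DP at 6.88% of 1351 peaks and near late genes at 6.69% of 867 peaks. From DP to neurons the shares were 18.3% and 13.6%. 5hmC was higher from PP to DP at 12.8% of 1669 peaks near early genes and 13.9% of 888 near late genes, and from DP to neurons at 20.9% and 21.1%. From PP to DP the shares of early and late genes thus lay close together for both marks, although the early genes had by definition risen in expression at that step. At the 414 member peaks chosen for lower 5mC in neurons than in PP, the median level was 4.87 (PP), 4.64 (DP), and 3.62 (neurons), and 85 of them had passed 1.5-fold already in DP. At the 678 chosen for higher 5hmC it was 3.81, 4.23, and 4.98, and 298 had passed 1.5-fold in DP. Thus 20.5% of these 5mC peaks and 44.0% of these 5hmC peaks were past 1.5-fold in DP. Over all peaks of the tables chosen in the same way these shares were 21.2% and 43.6%.

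By position, 61 of the 5mC peaks lay within 2 kb of a start site, 1202 inside the gene beyond it, 699 upstream, and 256 downstream. 5mC was lower from PP to neurons at 18 of the 61 (29.5%), at 20.0% inside genes, 14.4% upstream, and 21.1% downstream. The shares over all peaks in these positions were 9.44%, 10.7%, 9.72%, and 10.5%. 5hmC was higher at 22 of 106 peaks within 2 kb (20.8%), at 31.2% of 1297 inside genes, 20.2% of 872 upstream, and 26.6% of 282 downstream, against 20.9%, 27.0%, 18.5%, and 21.4% over all peaks. The position with the highest share was therefore the start site for loss of 5mC and the gene body for gain of 5hmC. Of the 4 positions, the 5hmC share near the start site was the one closest to that of all peaks. A well-placed example was Tubb3, the neuronal tubulin. Its 5mC peak 883 bp upstream, chr8:123410483-123410602, had a level of 6.52 in PP and 6.03 in DP against 4.36 in neurons, and the overlapping 5hmC peak, chr8:123410458-123410579, one of 3.03, 3.30, and 5.72. Both marks changed mainly between DP and neurons there, by −1.49 for 5mC and by 2.44 for 5hmC. The other 4 5mC peaks of Tubb3, 6.72 to 15.5 kb downstream of the start, differed by −0.26 to 0.06 from PP to neurons. Of the 4 5hmC peaks of Tubb3, 3 were higher from PP to neurons, and the median difference of the 4 was 1.27.

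Where peaks of both marks overlapped, opposite changes were frequent. Overlapping pairs numbered 6727 in the tables and 329 among the members, near 179 genes, and involved 14.7% of the 5mC and 12.9% of the 5hmC member peaks, against 12.2% and 14.2% of all peaks. In 95 of the 329 member pairs (28.9%), near 70 genes, 5mC was lower and 5hmC higher from PP to neurons, against 18.8% of all pairs. The counts were 59 (17.9%, against 12.5%) from DP to neurons and 12 (3.65%, against 3.20%) from PP to DP. Of the 123 member pairs with lower 5mC, 77.2% had higher 5hmC, and of the 182 with higher 5hmC, 52.2% had lower 5mC. Over all pairs these shares were 77.7% and 43.9%. The converse, higher 5mC with lower 5hmC, was found in 0 member pairs and in 15 of all 6727 pairs from PP to neurons. Median levels of the member pairs went from 5.15 in PP to 5.03 in DP and 4.54 in neurons for 5mC, and from 4.51 to 4.71 and 5.14 for 5hmC.

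The 10 member pairs with the largest sum of 5mC fall and 5hmC gain lay at genes of diverse roles. The first was inside Inf2, which encodes a formin that shapes actin filaments, 4.59 kb from its start (chr12:112593301-112593444). 5mC there was 4.28 (PP), 3.40 (DP), and 2.06 (neurons), while 5hmC was 0.65, 3.81, and 4.92. The 5hmC level came up mostly in DP and the 5mC level went down in both steps. At Nrxn2, a presynaptic adhesion receptor, the pair at chr19:6423400-6423573 had 5mC levels of 4.91, 4.62, and 1.38 and 5hmC levels of 2.90, 4.31, and 5.68. All 3 5mC peaks near Nrxn2 were lower in neurons than in PP, and 4 of its 6 5hmC peaks were higher. The pair 42.4 kb downstream of Ube2ql1, a gene of the ubiquitin-conjugating family, had the highest 5mC level in PP of the 10, with 7.17, 6.71, and 5.55, beside 5hmC levels of 1.5, 4.06, and 6.10.

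Accn2, known today as Asic1 and encoding an acid-sensing ion channel, had a pair 9.21 kb upstream with 5hmC at −0.051 in PP, the lowest value in the PP column, 2.99 in DP, and 4.60 in neurons. Its 5mC levels were 6.35, 6.07, and 4.90. Inside Dpf1, which encodes a subunit of the neuronal BAF chromatin remodeller, 5mC was 4.63, 4.06, and 0.47 and 5hmC 4.08, 5.16, and 5.87 at chr7:29316192-29316416. The 5mC fall of Dpf1 lay mainly between DP and neurons, at −3.41, after −0.57 from PP to DP. Adamts17, an extracellular metalloprotease, resembled it in 5mC with 4.82, 4.07, and 1.0, and its 5hmC of 2.47, 4.37, and 4.59 was almost complete in DP. At Kirrel3, an adhesion molecule of synapses, the pair lay 239.9 kb upstream, and 5mC of 4.57, 4.85, and 3.17 was highest in DP. The pairs inside Nmnat2, an enzyme of NAD synthesis that maintains axons, and Dock9, an activator of Cdc42, had 5hmC levels of 0.40 each in PP and 4.57 and 4.67 in neurons. Inside Dcx, 2.22 kb from the start (chrX:143931015-143931161), 5hmC was 0.67, 4.01, and 5.44, whereas 5mC of 6.50, 6.18, and 5.95 differed by −0.38 only, less than 1.5-fold. In 9 of the 10 pairs both marks thus passed 1.5-fold, and Dcx was the exception. The pairs were chosen by the sum of these changes, which favours this outcome.

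**Figure D3:**
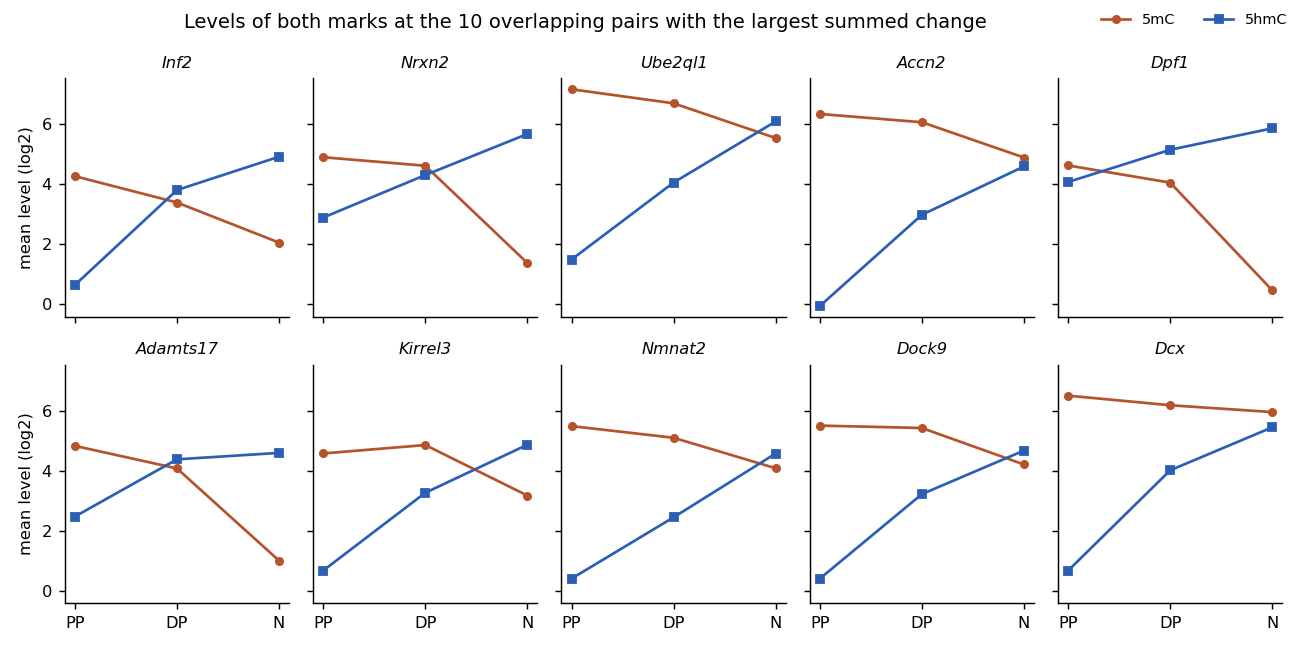
Mean log2 level of 5mC (circles) and 5hmC (squares) in PP, DP, and neurons (N) at the 10 overlapping member pairs with the largest sum of 5mC fall and 5hmC gain; each point is 1 deposited mean, without error. 5hmC is already above its PP level in DP in every panel, and 5mC is lowest in neurons in every panel.

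The largest 5mC falls among member peaks with a level of at least 5 in PP or neurons were at Syt3, Syt1, Tiam2, Kit, Rbfox1, and Klhl29. Syt3, a synaptotagmin, had a peak 1.46 kb upstream of its start (chr7:44382544-44382750) with 5mC of 6.32 in PP and 5.70 in DP against 0.11 in neurons. Syt1, the calcium sensor of fast transmitter release, had one deep inside the gene, 195.3 kb from the start, with 5.05, 4.42, and 0.47. Both were already lower in DP than in PP by just over 1.5-fold, at −0.61 and −0.63, and were near the lower end of the scale in neurons. Tiam2, an activator of Rac, had 6.03, 5.37, and 1.65 at a peak 72.5 kb upstream. Peaks inside Kit, a receptor tyrosine kinase, Rbfox1, a splicing regulator, and Klhl29, of the kelch-like family, were at 5.05, 5.15, and 6.08 in PP and at 0.85, 1.20, and 2.19 in neurons. The largest 5mC gains were smaller. They were found 18.4 kb downstream of Chst1, a sulfotransferase, with 4.76 (PP), 5.29 (DP), and 5.56 (neurons), and inside Robo1, a receptor for Slit ligands, with 4.54, 5.00, and 5.30. Slit3, a ligand of Robo receptors, followed with 4.55, 4.45, and 5.29, ahead of Plk2, Sez6l, and 2010107G23Rik, which differed by 0.88, 0.86, and 0.82.

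For 5hmC the order of sizes was the opposite, with gains larger than falls. Fam196a, a gene of inhibitory synapses, had a 5hmC level of −0.051 in PP and 2.88 in DP against 5.54 in neurons at chr7:134884253-134884399, and Mapk10, the neuronal JNK kinase, had −0.051, 4.15, and 5.11. In RefSeq the Fam196a peak lies inside Dock1 as well. Other genes also overlap the Syt3 peak (1700008O03Rik) and the Tiam2 peak (Gm34035) with the largest 5mC falls. The same holds for the Ube2ql1 pair (Gm35618), the Inf2 pair (Gm30048, beside Inf2), and the Neurod6 peak named below (Gm34441). Nefm, a neurofilament subunit, had 0.74, 3.87, and 5.83 at a peak 19.5 kb upstream, and Sgip1, an endocytic adaptor, 0.67, 3.64, and 5.10 inside the gene. The gains at Dcx and Ube2ql1 described above completed this list. The largest falls were at Cxcr7, an atypical chemokine receptor of migrating neurons, with 5hmC at 5.07 (PP), 4.21 (DP), and 2.58 (neurons) 24.6 kb downstream, and at Neurod6, a transcription factor of cortical neurons, with 5.30, 5.02, and 3.28. Bcl11b, a transcription factor of deep-layer projection neurons, had 6.49, 5.78, and 4.77 at chr12:107928860-107929025. At Klhl29 and Syt1 the 5hmC fall of −1.51 and −1.07 lay at or beside the 5mC peaks described above, so that both marks were lower in neurons there. Rbfox2, another splicing regulator, differed by −1.14.

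Genes with many peaks showed how uneven the marks were along 1 locus. Counts per gene, here and in the next paragraph, are read beside 10.2% lower 5mC and 22.1% higher 5hmC over all peaks. Rbfox1 had the most 5hmC peaks, 67, and 29 5mC peaks. Of these, 11 5mC peaks were lower from PP to neurons and 0 higher, while 10 5hmC peaks were higher and 6 lower, and the gene's median 5hmC difference was −0.12. Prickle1, of the planar polarity pathway, had the most 5mC peaks, 47, of which 6 were lower and 5 higher, and 12 of its 35 5hmC peaks were higher. Spock1, a proteoglycan of the extracellular matrix, had 6 of 44 5mC peaks lower and 14 of 35 5hmC peaks higher, and Ank3, which encodes the ankyrin of the axon initial segment, 7 of 30 and 12 of 35. The 5mC medians of Prickle1 and Spock1, 0.04 and 0.05, lay above 0 although each had lower peaks. Robo1 had 3 of 27 5mC peaks lower and 9 of 23 5hmC peaks higher, Mapk10 4 of 28 and 7 of 16, and Nav2, a regulator of neurite growth, 7 of 18 and 11 of 28. Ttll7, a tubulin-modifying enzyme, had 2 of 24 and 8 of 26. The 5mC counts of Robo1 and Ttll7 lie near the share of all peaks.

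Dpf1 and Cdk5r1, which encodes the neuronal activator of a cyclin-dependent kinase, had the largest 5hmC medians among genes with at least 5 member peaks of each mark, 1.58 each. Dpf1 had 11 of 17 5hmC peaks higher and 8 of 16 5mC peaks lower. The 5hmC gains lay inside the gene, 10.3 to 12.4 kb from its start, and downstream of it, 35.1 to 89.7 kb from the start. The 5hmC level at chr7:29385944-29386072 was 1.71 in PP and 4.02 in DP against 4.83 in neurons, and at chr7:29343263-29343390 it was 4.46, 5.53, and 7.22. Prkce, a protein kinase C, had 11 of 16 5hmC peaks higher and 7 of 20 5mC peaks lower, with 1 peak of each mark changed the other way. Cntn2, the gene with the highest expression in neurons, had 7 of 13 5mC peaks lower, and at 2 of these, chr1:132569731-132569850 and chr1:132591533-132591703, the level was 4.42 and 4.33 in PP and 0.11 in neurons. Of its 12 5hmC peaks, 4 were higher and 2 lower. Bcl11b had 8 of 21 5mC peaks lower, 7 of them inside the gene, and 7 of 20 5hmC peaks higher.

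Over the 122 genes with at least 5 member peaks of each mark, 59 (48.4%) had a 5mC median below and a 5hmC median above 0, and 18 (14.8%) the converse, against 40.4% and 22.4% of the 2038 genes with as many peaks in the tables. At least 1 peak with lower 5mC was found at 187 of 417 genes (44.8%), against 26.0% of all genes in the table, and at least 1 with higher 5hmC at 255 of 425 (60.0%), against 40.5%. Member genes also had more peaks, with a median of 4 for both marks against 3 for 5mC and 2 for 5hmC over all genes, so that these shares compare genes with unequal numbers of peaks. At 230 member genes no 5mC peak was lower by 1.5-fold from PP to neurons, and 55 genes (13.2%) with 3 or more held 59.7% of the 414 peaks. Over all genes 2.99% had 3 or more, and these held 30.3% of the peaks with lower 5mC.

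**Figure D4:**
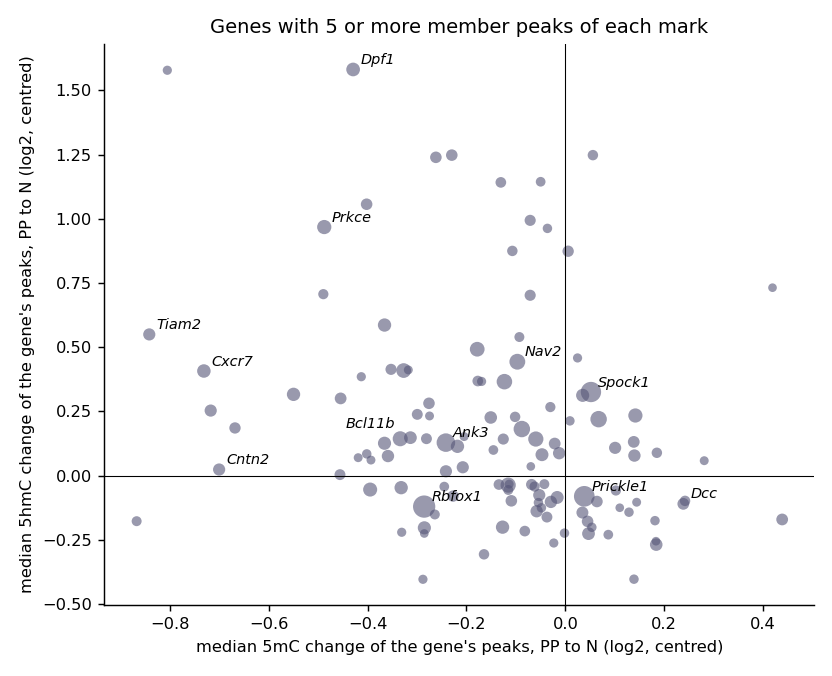
Median centred difference from PP to neurons of each gene's peaks, 5mC (horizontal) against 5hmC (vertical), both on the log2 scale, for the 122 genes with 5 or more member peaks of each mark; the area of a point grows with the number of peaks. More points lie in the upper left, 59 genes, than in the lower right, 18 genes, and Dpf1 has a 5hmC median of 1.58.

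Groups of genes by function were taken from lists written from general knowledge, with counts of peaks from PP to neurons read beside 10.2% for lower 5mC and 22.1% for higher 5hmC. Of 73 transcription factors of neurons, 18 met the rule, with 20 of 70 5mC peaks lower (28.6%) and 23 of 86 5hmC peaks higher (26.7%). Beside Bcl11b they included Myt1l, a repressor of non-neuronal genes, with 1 of 11 5mC peaks lower and 6 of 18 5hmC peaks higher, Mef2c, an activity-dependent factor, with 1 of 7 and 2 of 10, and Tbr1, a factor of corticothalamic neurons, with 1 of 2 5mC peaks lower. Of 109 signalling genes 29 met the rule, with 52 of 198 5mC peaks lower (26.3%) and 63 of 185 5hmC peaks higher (34.1%), the highest 5hmC share of the lists. Prkce, Tiam2, and Srgap1, a GTPase activator downstream of Robo, each had 7 peaks with lower 5mC, among 20, 14, and 22. Nuak1, a kinase of axon branching, had 4 of 10 5mC peaks lower and 7 of 21 5hmC peaks higher.

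The neuronal cytoskeleton, with 16 of 48 genes, had 17 of 97 5mC peaks lower (17.5%) and 31 of 96 5hmC peaks higher (32.3%). Ank3 carried 7 of the former and 12 of the latter, and Gap43, a growth cone protein, 4 of 16 and 3 of 15. Adhesion and axon guidance genes, 38 of 149, had 34 of 170 5mC peaks lower (20.0%) and 69 of 277 5hmC peaks higher (24.9%). Among them Dcc, a netrin receptor, had 0 of 5 and 3 of 18, and Nrxn3, a neurexin, 1 of 8 and 1 of 18, in contrast to Nrxn2. Synaptic vesicle genes, 26 of 66, had 17 of 90 (18.9%) and 28 of 120 (23.3%). Erc2, a scaffold of the active zone, had 3 of 15 and 6 of 15, and Rimbp2, another active zone protein, 0 of 9 and 1 of 14.

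Ion channels and neurotransmitter receptors, 33 of 112 genes, had 19 of 129 5mC peaks lower (14.7%), the lowest share of the lists, and 40 of 194 5hmC peaks higher (20.6%), which is under the share of all peaks. Gabbr2, a subunit of the metabotropic GABA receptor, had 3 of 16 and 8 of 20, whereas Cacna1e, a calcium channel, had 0 of 10 and 2 of 18 with 4 lower, and Gria1, an AMPA receptor subunit, 1 of 9 and 4 of 17. RNA-binding and splicing genes, 7 of 32, had 11 of 39 5mC peaks lower (28.2%), every one of them at Rbfox1, and 14 of 89 5hmC peaks higher (15.7%). The 5hmC median was below 0 for all 7 of these genes. The 294 member genes in no list had 244 of 1425 (17.1%) and 410 of 1510 (27.2%). The share with lower 5mC was thus above that of all peaks in each of the 7 lists and in the remaining genes, and the share with higher 5hmC was below it in 2 lists. The median 5mC difference was −0.28 for transcription factors, −0.23 for signalling, −0.20 for RNA-binding, −0.19 for the cytoskeleton, −0.10 for channels and receptors, −0.070 for adhesion and guidance, and 0.012 for synaptic vesicle genes. The median 5hmC difference was above 0 for signalling (0.12), transcription factors (0.063), and the cytoskeleton (0.038), and below 0 for adhesion and guidance (−0.0069), synaptic vesicle genes (−0.081), channels and receptors (−0.091), and RNA-binding genes (−0.12). These medians pool peaks, so that genes with many peaks weigh more. Taken by gene, the 5hmC median was above 0 at 20 of 36 adhesion and guidance genes, 14 of 25 synaptic vesicle genes, and 13 of 31 channel and receptor genes. The 5mC median was below 0 at 12 of 21 synaptic vesicle genes and 2 of 6 RNA-binding genes, and at most genes of every other list.

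**Figure D5:**
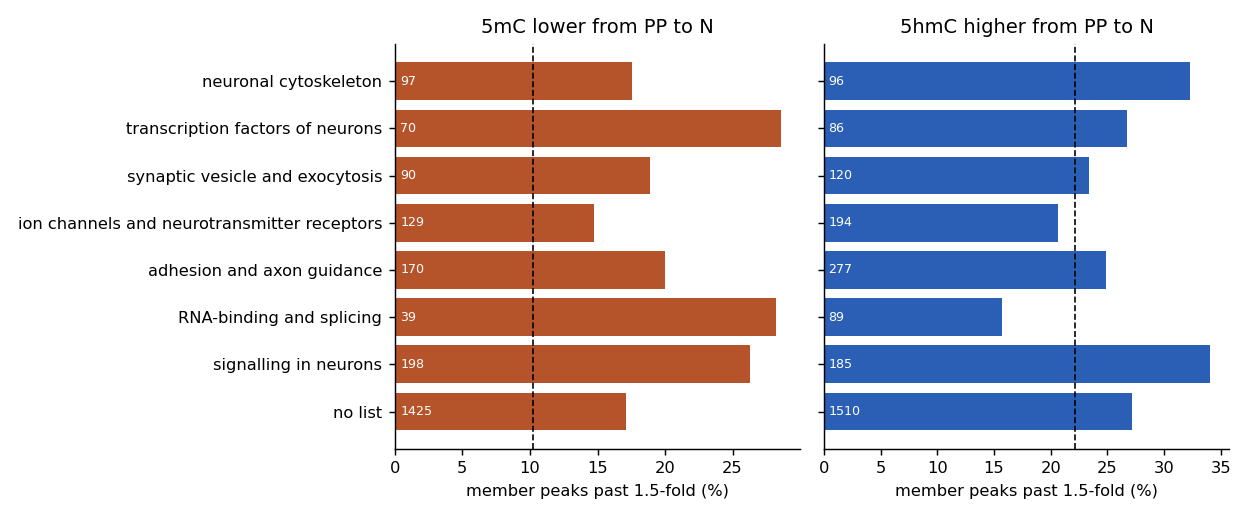
Share of member peaks (%) with lower 5mC (left) and higher 5hmC (right) from PP to neurons for the member genes of 7 function lists and for the other member genes; white numbers are the peaks counted, and dashed lines the shares over all peaks, 10.2% and 22.1%. All 5mC bars end right of the dashed line, and the 5hmC bars of ion channels and receptors, 20.6%, and of RNA-binding genes, 15.7%, end left of it.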

How the data were processed

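Single reads of 75 bp were mapped by the authors to mm10 (BWA), peaks were called with SICER v1.1, and those found in all replicates of a cell type outside repeats were merged, given TMM levels in DiffBind, and annotated to the nearest gene with HOMER v4.7 (versions also from the submitters' processing notes). The level columns deposited by the authors are log2 mean levels per cell type, averaged over replicates. The deposited expression columns are a score per gene and cell type from an earlier RNA-seq study of the authors, whose scale is not named, and the distance to the start site is a deposited score in bp. The 10 columns per table with the authors' own folds and p-values between cell types were not used. No column belonged to samples of another series (0 columns). Depth per sample is unknown from these tables.

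Differences of levels were centred on the median over all peaks of a mark and counted at 1.5-fold (0.585 on the log2 scale). No count was compared by a test, since no replicate values were used. Peaks were paired at an overlap of at least 1 bp. Of the 461 gene symbols, 458 matched RefSeq, 428 by the current symbol. Under 4 symbols both member and other rows were found, and only the member rows were counted. Members, gene lists and marker lists were chosen with earlier results of these data known. Named were the 10 genes with the highest expression in neurons, the 6 per mark with the most peaks, the 6 largest falls and gains per mark from PP to neurons at a level of at least 5, the 10 largest shared pairs, 3 genes on each side of the threshold, and list members with many peaks. Other genes were named after their values were seen. Start sites, sequences and symbols came from RefSeq tables of GRCm38.p6. Alternatives were no centring, 2-fold, a mean level of at least 5, each gene once, ratios of 4 and 16, and an overlap of at least 50%. The steps were tested on simulated data. Python 3.11.15, pandas 2.3.3, numpy 2.4.6, scipy 1.17.1, and matplotlib 3.10.9 were used. A further promoter motif is not reported here. Motifs within the peaks themselves, enhancer marks, bisulfite amplicons, and editing experiments were not analysed here.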

Additional observations from a re-analysis of the deposited data

How the results depend on the processing

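No paired analysis was possible because the labels carry no replicate numbers and the tables hold means per cell type, and no replicate could be left out for the same reason. Of 70 alternatives, 25 stayed within the 95% binomial interval of the main value over peaks (for the count of pairs, within 1.5 times), and 42 lay outside it. The other 3 were medians with a changed sign and a main interval that excluded 0. For the 5hmC median from PP to DP, 0.0031, the interval ran from −0.0152 to 0.0241. The sign of this median also changed without centring (−0.00034), at a mean level of at least 5 (−0.049) and at a ratio of 16 (−0.026), which were counted by the interval alone. The binomial interval takes peaks as independent although many share a gene, so it is a yardstick of size and not a measure of stability, and a share at 2-fold must be smaller by construction. The share of peaks with CAGATG was not computed, since peak sequences were not read here. Counting each gene once for CAGATG (17.1%, against 19.2% of all genes) was chosen after seeing the data.

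Values over all peaks in the same setting follow in parentheses. Without centring, the 5mC median was −0.26 (−0.18) from DP to neurons and −0.28 (−0.17) from PP to neurons, lower 5mC was found at 24.5% (15.5%) and 26.3% (16.3%) and higher 5mC at 1.89% (2.26%) and 1.89% (2.12%). For 5hmC from PP to neurons the median was −0.038 (−0.081), the lower share 10.6% (10.8%) and the higher share 24.7% (20.2%). Centring adds 1 constant to all peaks of a comparison, so this change of sign leaves members above all peaks.

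At 2-fold, 5mC was lower at 1.26% (0.960%) from PP to DP, 7.26% (3.30%) from DP to neurons and 8.30% (4.00%) from PP to neurons, and higher at 0.68% (0.659%), 0.54% (0.704%) and 0.54% (0.677%). 5hmC was lower at 0.59% (0.560%), 1.41% (1.19%) and 1.33% (1.24%) and higher at 6.30% (5.07%), 11.1% (8.03%) and 18.5% (14.2%). From PP to neurons, 40 of the 329 member pairs had lower 5mC with higher 5hmC at 2-fold. The share over all pairs at 2-fold is not given here.

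At a mean level of at least 5, 5mC medians were −0.0049 (0.01), −0.038 (0.027) and −0.032 (0.033), with 0.63% (1.16%), 7.35% (3.26%) and 8.61% (3.91%) lower and 0.95% (1.20%), 1.16% (1.75%) and 1.37% (2.11%) higher. Lower 5mC from PP to DP was thus less frequent at members than at all peaks of that level, the reverse of the order over all levels. 5hmC medians were −0.049 (−0.032), −0.042 (−0.045) and −0.065 (−0.051), with 1.21% (1.15%), 1.94% (2.63%) and 4.98% (3.09%) lower and 4.37% (3.78%), 8.74% (6.74%) and 14.0% (12.2%) higher. Each of the 5hmC medians here had the opposite sign to its main value, which for PP to DP was 0.0031.

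With each gene counted once the 5mC median was −0.059 (0.011) from DP to neurons and −0.082 (0.0082) from PP to neurons, and at a ratio of 16 the 5hmC median was −0.026 from PP to DP and 0.012 from PP to neurons, beside 0 over all peaks. The cause of the shifts at other levels, ratios and gene weights was not tested. Depth limits peaks of low level most. The paper gives a range of reads per sample, but depth per peak is unknown here, and its part was not tested.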

Other observations

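Gene symbols that a spreadsheet turned into dates were found for 18 genes of the tables and for 2 member genes, which the gene descriptions give as septin 5 and a membrane-associated ring finger gene. Among the 9 member genes on X with 5mC peaks, 1 of 21 5mC peaks (4.76%) was lower and 0 higher from PP to neurons, against 4.01% and 7.13% of all peaks on X, and 2 of 26 5hmC peaks near 10 genes (7.69%) were higher and 2 lower, against 3.07% and 11.3%. Member peaks over 100 kb from the start site had lower 5mC at 100 of 515 peaks (19.4%) and higher 5hmC at 156 of 690 (22.6%), against 12.4% and 17.6% of all peaks at that distance.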
